A study of Mus musculus with 9 samples.

Results

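The 31 C/D and H/ACA small nucleolar RNAs (snoRNAs) with an entry in the expression table of AAV-injected Snord116 fl mice were analyzed. They are the entries whose Ensembl identifier maps to a gene symbol beginning with Snord (C/D class, 17 entries) or Snora (H/ACA class, 14 entries), of 13588 entries in all. Adult male mice on a C57BL/6J background (C57/BL6 in the labels), homozygous for a floxed Snord116 allele (Snord116tm1Uta), were injected into the mediobasal hypothalamus with AAV7-CAG-oCre (AAV-Cre) or with AAV7-CMV-GFP (AAV-GFP). The control mice thus carried the floxed allele too. They differed from AAV-Cre mice in promoter and transgene, and in vector titer, which the paper gives as higher for AAV-Cre. Brains were taken 10 weeks after injection, hypothalamic regions were laser captured from single brain slices with the help of Cre immunohistochemistry in adjacent sections, and RNA of every mouse was sequenced as its own library. There were 3 AAV-GFP mice, 3 AAV-Cre mice labelled obese and 3 AAV-Cre mice labelled nonobese. Sample titles and weight labels disagree for AAV-Cre mice, since the samples with the word obese in their titles are those labelled nonobese, and the weight label was used here.

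snoRNAs are short RNAs of the nucleolus that act as guides for enzymes modifying other RNAs, mainly ribosomal RNA. C/D snoRNAs carry a C box near the 5′ end and a D box near the 3′ end, bind fibrillarin, and direct 2′-O-methylation. H/ACA snoRNAs fold into hairpins joined by an H box, end shortly after an ACA motif, bind dyskerin, and direct conversion of uridine to pseudouridine. In mammals most of them are cut out of introns of host genes, many of which encode ribosomal proteins or translation factors. The Snord116 cluster is an exception in that it is imprinted, expressed in neurons from the paternal chromosome, and has no known target in ribosomal RNA, and its loss is central to Prader-Willi syndrome.

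The sequences below are those of GENCODE M21 (GRCm38), and are shown because the values reported afterwards turn on these snoRNAs: the most abundant member per base in the C/D class (Snord15a), the C/D member with the highest signal (Snord17), a C/D member with no annotated host on its strand (Snord104), the only member with libraries at 0 reads (Snord91a), the abundant Snora23, the brain snoRNA within Htr2c (Snora35), and the H/ACA members of lowest p in either direction (Snora24 and Snora33). A copy of the targeted cluster is given beside them. Capitals mark TGATGA (C box) and CTGA (D box) in C/D snoRNAs, and the match to ANANNA nearest to the middle (H box) and the ACA placed 3 bases before the 3′ end in H/ACA snoRNAs.
Snord15a: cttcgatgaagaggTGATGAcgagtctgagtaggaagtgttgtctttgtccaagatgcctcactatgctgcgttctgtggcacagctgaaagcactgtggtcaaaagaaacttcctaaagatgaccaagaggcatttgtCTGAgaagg
Snord17: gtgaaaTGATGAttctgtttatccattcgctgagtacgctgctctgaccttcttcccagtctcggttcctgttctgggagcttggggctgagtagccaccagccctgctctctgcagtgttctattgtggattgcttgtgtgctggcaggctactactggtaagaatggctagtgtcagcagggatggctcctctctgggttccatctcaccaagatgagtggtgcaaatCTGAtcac
Snord104: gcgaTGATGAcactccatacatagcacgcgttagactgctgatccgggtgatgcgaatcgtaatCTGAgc
Snord91a: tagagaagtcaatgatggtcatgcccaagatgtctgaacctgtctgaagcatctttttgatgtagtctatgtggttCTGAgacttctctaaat
Snora23: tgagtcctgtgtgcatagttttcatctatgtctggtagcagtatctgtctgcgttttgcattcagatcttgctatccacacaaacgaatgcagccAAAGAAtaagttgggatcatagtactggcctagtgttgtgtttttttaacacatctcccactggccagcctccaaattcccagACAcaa
Snora35: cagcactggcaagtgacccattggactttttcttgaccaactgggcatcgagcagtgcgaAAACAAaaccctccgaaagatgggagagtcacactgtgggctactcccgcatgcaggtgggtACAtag
Snora24: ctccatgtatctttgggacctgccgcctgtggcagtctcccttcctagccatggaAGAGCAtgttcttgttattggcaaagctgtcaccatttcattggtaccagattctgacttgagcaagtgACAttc
Snora33: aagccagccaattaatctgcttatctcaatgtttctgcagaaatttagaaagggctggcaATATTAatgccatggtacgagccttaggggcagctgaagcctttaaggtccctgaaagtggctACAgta
Snord116l1: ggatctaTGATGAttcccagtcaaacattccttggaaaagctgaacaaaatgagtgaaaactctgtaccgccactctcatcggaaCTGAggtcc
Snord15a lies at chr7:99482785-99482932 on the minus strand, Snord17 at chr2:144265979-144266216 on the minus strand, Snord104 at chr11:106500993-106501062 on the plus strand, and Snord91a at chr11:74905424-74905516 on the plus strand. Snora23 lies at chr7:110046364-110046547 (plus), Snora35 at chrX:146994381-146994508 (plus), Snora24 at chr3:123507937-123508066 (minus) and Snora33 at chr10:23785347-23785475 (minus). Snord116l1, the copy of the targeted cluster, lies at chr7:59894620-59894713 (minus).

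The letters of these boxes separated the classes. TGATGA within the first 20 bases together with CTGA within the last 20 was found in 12 of 17 C/D members (70.6%), in 55 of 81 annotated C/D snoRNAs without an entry (67.9%), in none of the H/ACA snoRNAs and in 9 of 9211 other annotated transcripts of at most 300 bases (0.098%). ACA at 3 bases from the 3′ end was found in 12 of 14 H/ACA members (85.7%) and in 23 of 28 H/ACA snoRNAs without an entry (82.1%), in none of the C/D snoRNAs, and in 173 of the 9211 other transcripts (1.88%). The 9211 other transcripts leave out those typed as snoRNAs or small Cajal body RNAs without a Snord or Snora symbol, so the boxes were not counted there. The search read the strand of the transcript only. Snord91a held CTGA but not TGATGA in these windows.

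No copy of the targeted cluster had an entry in the table. GENCODE M21 lists 17 Snord116 copies between positions 59861731 and 59904848 of chromosome 7, all on the minus strand and all of 94 bases. The copies have 4 distinct sequences, of which 1 is shared by 14 copies, and the lowest identity to it was 96.8%. All 17 held both boxes. In a separate set of mice, the paper reports by qPCR a partial reduction of Snord116 in the mediobasal hypothalamus after AAV-Cre. Snord107 of the same locus and Snhg14, the annotated host transcript of this region, had no entry either. The reduction of Snord116 could thus not be checked in these libraries. The vector entries could be, and they matched the labels, with between 1011 and 37704 reads of Cre in AAV-Cre libraries against 0 to 5 in AAV-GFP libraries, and 317 to 350 reads of Gfp in AAV-GFP libraries against 0 in AAV-Cre libraries.

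A minority of the annotated snoRNAs was represented. Of 98 annotated C/D symbols 17 had an entry (17.3%), and of 42 H/ACA symbols 14 had one (33.3%). Within the C/D class, 8 of 59 snoRNAs under 90 bases had an entry (13.6%), against 7 of 34 that were at least 90 but under 120 bases (20.6%) and 1 of 4 that were at least 120 but under 150 bases. The H/ACA snoRNAs are longer, and 12 of 37 that were at least 120 but under 150 bases had an entry (32.4%). The median length was 90 bases for C/D members with an entry and 83 for those without, and 136.5 and 132 for H/ACA snoRNAs. The part of length in these shares was not tested. No entry of the table had fewer than 50 reads over the 9 libraries.

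The libraries held between 3929672 and 5766994 reads on listed entries (median 4611358), and the values analyzed here are signal, the reads of an entry divided by a scaled library size and put on a scale like that of CPM. A count of 3 reads, taken as the lowest that differs from 0, corresponded to a signal of 0.525 to 0.786, which covers counting error only. The 31 snoRNAs together took 1988 to 3738 reads per library, or 4.01 to 7.94 of every 10000 reads, and 29 to 31 of them had more than 3 reads in any given library. Of 24150 snoRNA reads in all, 53.0% fell on C/D and 47.0% on H/ACA members. As a check of the tissue, 5 of 5 neuronal markers had entries, with a summed signal of 1834 to 1943 in AAV-GFP mice, as had 5 of 6 markers of hypothalamic neurons, with a summed signal of 54.8 to 246.1.

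Individual members spanned a wide range of levels. In the C/D class, the mean signal over 9 libraries ran from 1.83 for Snord91a to 81.2 for Snord17, with a median of 12.1. In the H/ACA class, it ran from 3.03 for Snora33 to 69.6 for Snora74a, with a median of 11.98. Both medians were below that of all entries (22.2), and the 3 highest members held 54.9% of the C/D signal and 55.9% of the H/ACA signal. Snord17, Snord15a, Snord87, Snord89, Snord55, Snord104, Snord100 and Snord58b, in this order, were the 8 highest C/D members, and Snora74a, Snora23, Snora7a, Snora21, Snora16a, Snora35, Snora34 and Snora24 the 8 highest H/ACA members.

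**Figure D1:**
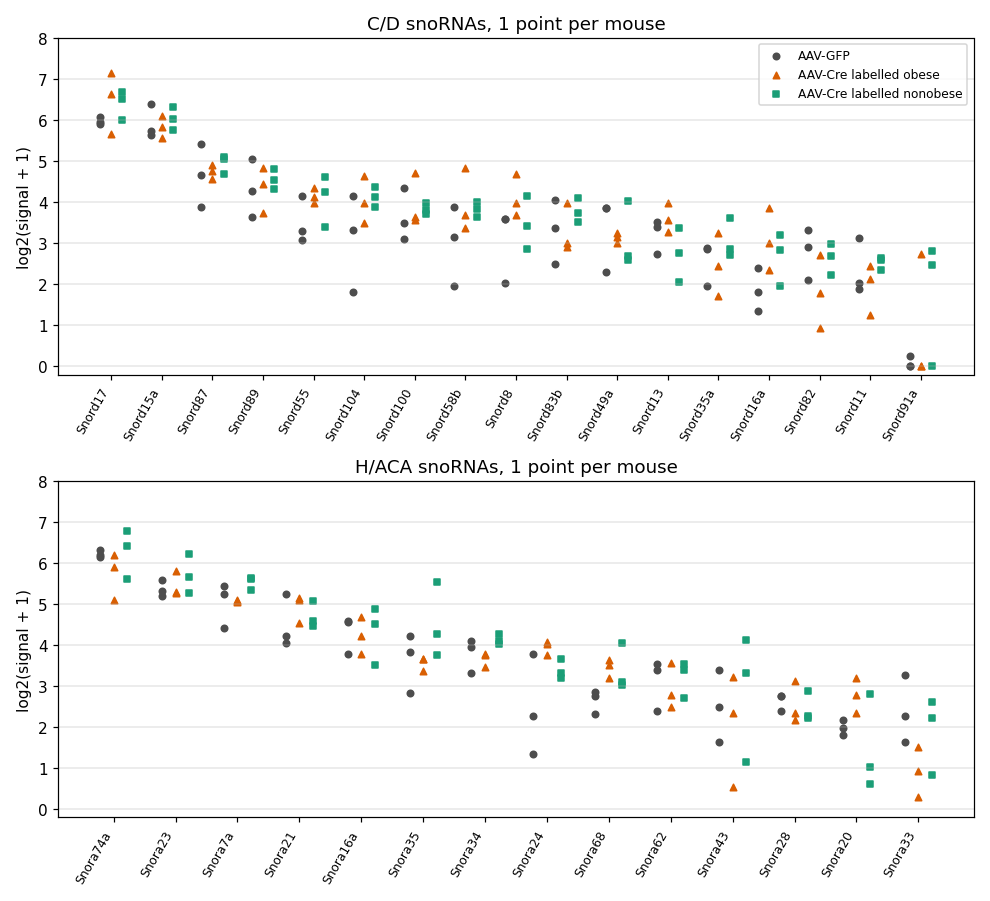
Level of each snoRNA in each mouse, as log2(signal + 1), with members of each class ordered by mean signal; circles are AAV-GFP mice, triangles AAV-Cre mice labelled obese and squares AAV-Cre mice labelled nonobese. Within most members the 3 groups overlap, and Snord91a has 5 of its 9 libraries at 0.

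Because longer RNAs yield more fragments, levels between genes were compared per length. Snord15a, a guide for the large ribosomal RNA, had the highest mean signal per 100 bases (41.2), followed by Snora74a (35.5), Snord17 (34.1), Snord87 (31.6), Snora7a (26.4) and Snora23 (25.0). The median per 100 bases was 12.4 for C/D and 8.91 for H/ACA members. Across members, length and log2 mean signal correlated with Pearson's r of 0.64 (Spearman's rho 0.28) over 17 C/D snoRNAs and 0.72 (rho 0.64) over 14 H/ACA snoRNAs. These are correlations across genes measured in the same libraries and are given as a description.

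Among the abundant members, Snord15a and Snora23 showed no separation of the groups. Snord15a signal was 83.3, 52.1 and 48.6 in the AAV-GFP mice, 55.8, 45.8 and 67.6 in the mice labelled obese, and 52.7, 64.2 and 79.2 in the mice labelled nonobese. Its coefficient of variation (CV) over 9 libraries, 21.99%, was the lowest of the C/D class, and the high mouse was AAV-GFP replicate 1. Snora23 signal was 47.1, 39.1 and 35.3 in AAV-GFP mice, 37.6, 54.9 and 38.1 in the mice labelled obese, and 49.7, 37.5 and 73.8 in the mice labelled nonobese, with labelled nonobese replicate 3 the highest.

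The spread between AAV-GFP mice was wider in C/D than in H/ACA snoRNAs. The median CV over the 3 AAV-GFP mice was 50.8% for C/D members and 32.4% for H/ACA members, against 26.9% for all entries tested. It was 31.3% for entries with a mean signal within the range of the members (1.83 to 81.2). That range holds most entries, which were not matched to the members in level within it. Of the members with a mean signal of at least 5, Snord17 had the lowest CV over the AAV-GFP mice (6.31%), followed by Snora74a (6.57%), and Snora24 had the highest (97.8%).

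AAV-GFP replicate 3 stood apart in snoRNA level. It was the lowest of the 3 AAV-GFP mice for 15 of 17 C/D members and for 11 of 14 H/ACA members, and the lowest of all 9 libraries for 10 and 6 of them. Its median deviation from the mean of 9 libraries was -0.84 (log2) for C/D and -0.41 for H/ACA members. The same was seen for 42 other entries that are typed as snoRNAs but carry no Snord or Snora symbol (lowest AAV-GFP mouse for 32 of 42, median -0.63). It was not seen to that extent for small Cajal body RNAs (lowest for 6 of 11, median -0.05) or for genes of cytosolic ribosomal proteins (lowest for 35 of 79, median -0.18). Of 41 other small RNAs, which include those 11 and also Rnu3a of the 42, AAV-GFP replicate 3 was the lowest AAV-GFP mouse for 26, with a median of -0.18. Of 34 mitochondrially encoded entries it was the lowest AAV-GFP mouse for 19, with a median of -0.31. Its depth of 4954160 reads was close to that of AAV-GFP replicate 2 (4983985).

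**Figure D2:**
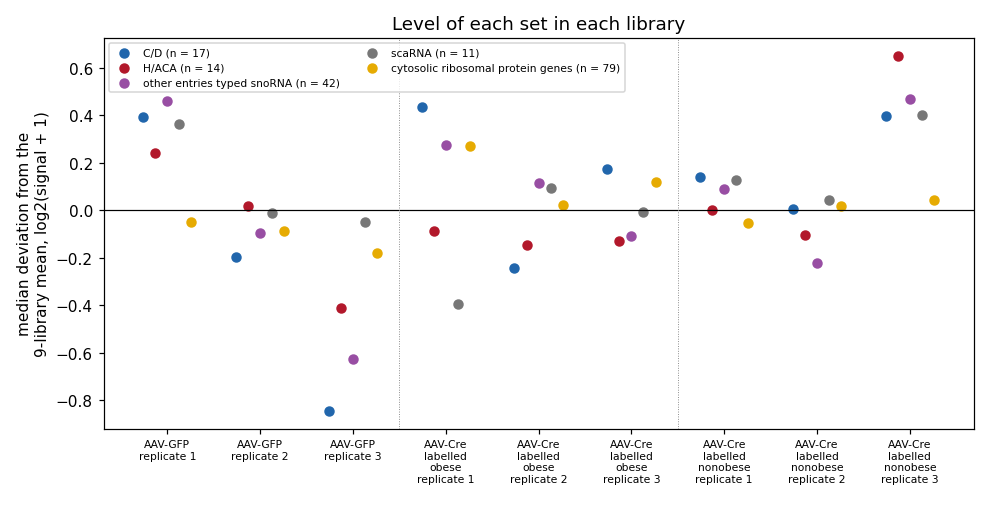
Median deviation of each gene set from its mean over 9 libraries, on the log2(signal + 1) scale, for each library; colors are the sets, with the number of entries in each. C/D (-0.84) and H/ACA (-0.41) snoRNAs sit lowest in AAV-GFP replicate 3, and H/ACA snoRNAs sit highest (0.65) in labelled nonobese replicate 3.

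Summed over each class, the levels of AAV-Cre and AAV-GFP mice overlapped. The C/D sum was 360.0, 259.1 and 182.9 in AAV-GFP mice, 427.5, 226.3 and 337.1 in the mice labelled obese, and 326.2, 279.7 and 381.3 in the mice labelled nonobese. The mean of 329.7 ± 71.4 (SD, n = 6) in AAV-Cre mice was 1.23 times that of AAV-GFP mice, 267.4 ± 88.8 (SD, n = 3), a difference smaller than the SD of either group. The H/ACA sum was 311.4, 245.9 and 203.1 in AAV-GFP mice, 230.8, 259.2 and 259.7 in the mice labelled obese, and 271.6, 255.6 and 416.3 in the mice labelled nonobese. Its mean was 282.2 ± 67.1 (SD, n = 6) in AAV-Cre and 253.5 ± 54.5 (SD, n = 3) in AAV-GFP mice, a ratio of 1.11. The C/D share of the snoRNA signal lay between 46.6% and 64.9%, and labelled obese replicate 1 held both the highest share and the highest C/D sum.

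To ask whether other snoRNAs changed where Snord116 was targeted, all AAV-Cre mice were compared with AAV-GFP mice. None of the 31 snoRNAs, all of which passed the filter on low signal, differed at an FDR under 0.1 in the limma fit, where 0.0222% of the 13506 entries tested did so. The lowest FDR of a member was 0.999. At an unadjusted p under 0.05, limma gave 1 member (Snora24), against 3.14% of all entries, and edgeR's quasi-likelihood test, edgeR's likelihood ratio test and DESeq2 on the recovered reads likewise called 0 at an FDR under 0.1, with 0, 1 and 1 members at an unadjusted p under 0.05. The median standard error of a member's log2 FC was 0.53, so that differences of such a size could not be resolved for a typical member. In this bulk RNA, fewer cells of a type and less RNA per cell cannot be told apart.

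The fitted changes of the C/D class leaned upward, and those of the H/ACA class less so. Against AAV-GFP, 13 of 17 C/D members had a log2 FC above 0 in all AAV-Cre mice, with a median of 0.24, and 8 of 14 H/ACA members did, with a median of 0.13, beside 46.6% and -0.03 for all entries tested. With AAV-GFP replicate 3 left out, 7 of 17 C/D members were above 0 with a median of -0.09, and 6 of 14 H/ACA members with a median of -0.08. Without AAV-GFP replicate 1 the counts were 16 of 17 and 11 of 14, with medians of 0.57 and 0.30, and without AAV-GFP replicate 2 they were 14 of 17 and 10 of 14, with medians of 0.27 and 0.13. The upward lean was thus not present without AAV-GFP replicate 3, and the C/D median was more than doubled without AAV-GFP replicate 1.

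**Figure D3:**
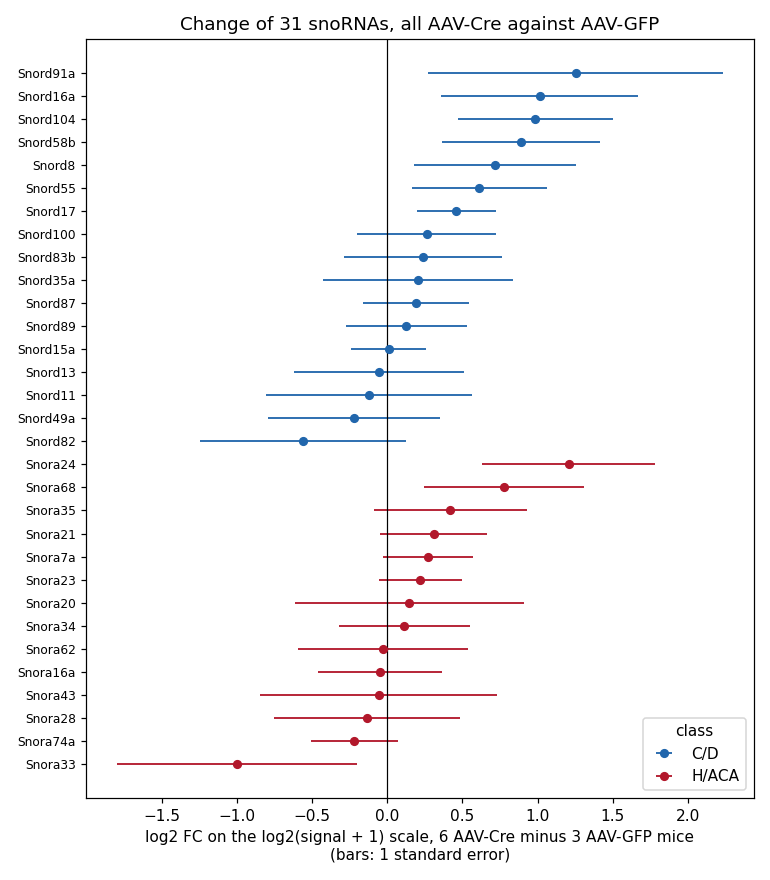
Log2 FC of each snoRNA in 6 AAV-Cre against 3 AAV-GFP mice, on the log2(signal + 1) scale; points are limma estimates, bars are 1 standard error, and members are ordered within class. The C/D points run from -0.56 (Snord82) to 1.25 (Snord91a), the H/ACA points from -0.998 (Snora33) to 1.21 (Snora24), and no member passed an FDR of 0.1; the value of Snord91a depends on the pseudocount.

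Snora24, a guide for pseudouridines of the small ribosomal RNA, had the lowest unadjusted p. Its signal was 12.7, 3.83 and 1.55 in AAV-GFP mice, 16.0, 15.2 and 12.5 in the mice labelled obese, and 11.7, 8.12 and 8.96 in the mice labelled nonobese. The groups overlapped because AAV-GFP replicate 1 lay within the range of the AAV-Cre mice, while the other AAV-GFP mice were below all of them. The log2 FC was 1.21 ± 0.57 (SE; limma, p = 0.0473, FDR = 0.999), the exact permutation test gave a 2-sided p of 0.0952, and the log2 FC was 0.65 without AAV-GFP replicate 3 and 1.86 without AAV-GFP replicate 1. The annotation places Snora24 in an exon of its host Snhg8, which had no entry.

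Snora68, another guide for ribosomal RNA, was the only member for which all 6 AAV-Cre mice lay on 1 side of all 3 AAV-GFP mice, a pattern found in 2.01% of all entries. Its signal was 3.99, 5.74 and 6.21 in AAV-GFP mice, 10.3, 11.3 and 8.13 in the mice labelled obese, and 7.17, 7.60 and 15.6 in the mice labelled nonobese. Every AAV-Cre mouse was above every AAV-GFP mouse. The log2 FC was 0.78 ± 0.54 (SE). The exact permutation test of this single value gave a 2-sided p of 0.0357, and limma gave p = 0.160 (FDR = 0.999). The smallest permutation p that 6 mice against 3 can give is 0.0119. Snora68 was picked out of 31 members because its groups do not overlap in these same values. Its permutation p is thus small by construction, was not corrected for that choice, and allows no conclusion.

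Snord104 and Snord17, both guides for the large ribosomal RNA, had the next lowest p among the members above 0. Snord104 signal was 16.7, 9.0 and 2.52 in AAV-GFP mice, 23.8, 10.2 and 14.6 in the mice labelled obese, and 13.8, 16.5 and 19.6 in the mice labelled nonobese, with a log2 FC of 0.98 ± 0.52 (SE; limma, FDR = 0.999). AAV-GFP replicate 3 was the low value, and without it the log2 FC was 0.35, against 1.51 without AAV-GFP replicate 1. Snord17 signal was 59.1, 66.6 and 61.0 in AAV-GFP mice, 139.9, 49.2 and 98.7 in the mice labelled obese, and 102.0, 63.4 and 90.9 in the mice labelled nonobese. The AAV-GFP mice were close to each other, and 4 of 6 AAV-Cre mice were above them and 1 was below. The log2 FC of Snord17 was 0.46 ± 0.26 (SE; limma, FDR = 0.999), with 0.45 when AAV-GFP replicate 3 was left out.

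Snora33, Snora74a and Snord82 had the lowest p among the members below 0. Snora33 signal was 8.73, 3.83 and 2.14 in AAV-GFP mice, 0.22, 0.91 and 1.86 in the mice labelled obese, and 3.67, 0.79 and 5.12 in the mice labelled nonobese. Snora33 lies within the gene of ribosomal protein S12 (Rps12) and overlaps one of its annotated exons. Its log2 FC was -0.998 ± 0.80 (SE), while that of Rps12 was 0.87 ± 0.33 (SE), neither with an FDR under 0.1 (both 0.999), and without AAV-GFP replicate 1 the log2 FC of Snora33 was -0.56. Snord82, within an intron of the nucleolin gene Ncl, had a signal of 8.98, 6.51 and 3.30 in AAV-GFP mice, 2.47, 0.91 and 5.58 in the mice labelled obese, and 5.42, 3.67 and 6.83 in the mice labelled nonobese, with overlapping groups and a log2 FC of -0.56 ± 0.69 (SE), which ran from -0.89 without AAV-GFP replicate 3 to -0.29 without AAV-GFP replicate 1. Snora74a, the highest H/ACA member, had a log2 FC of -0.22, and of -0.04 without labelled obese replicate 1.

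**Figure D4:**
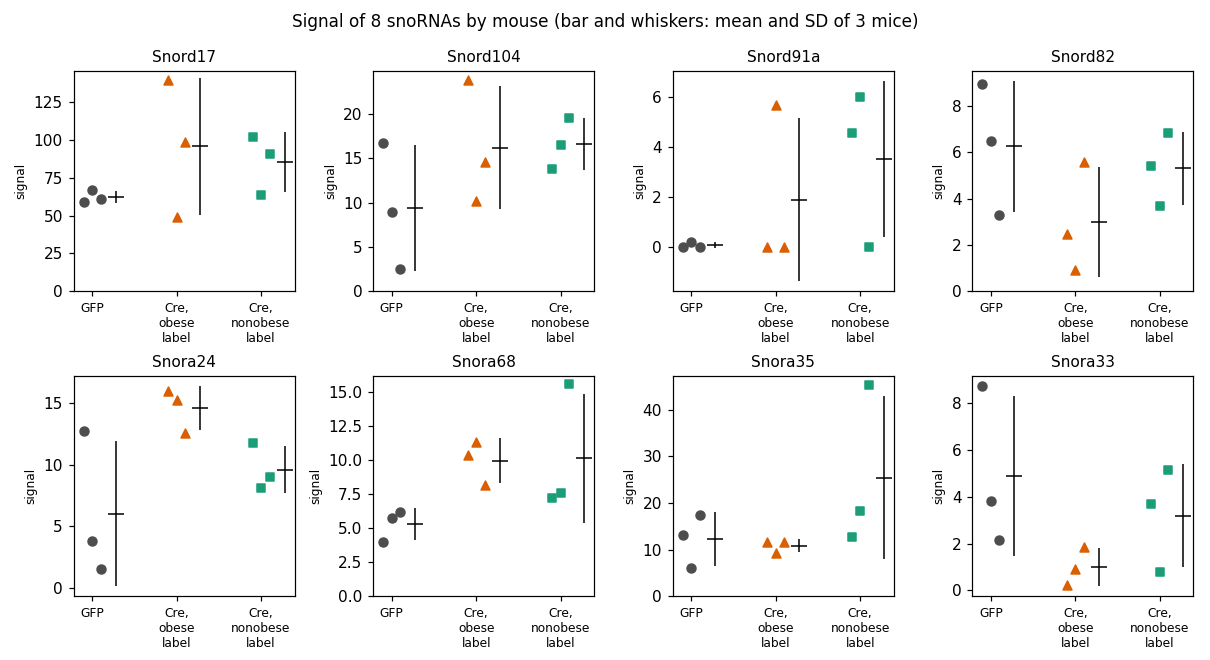
Signal of 8 snoRNAs in each mouse, in AAV-GFP mice and in AAV-Cre mice labelled obese and nonobese; symbols are mice, and the bar with whiskers beside them is the mean and SD of 3 mice. Snora68 is higher in all 6 AAV-Cre mice (7.17 to 15.6) than in all 3 AAV-GFP mice (3.99 to 6.21), and the other panels overlap between AAV-Cre and AAV-GFP.

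Snord91a, a C/D snoRNA within an intron of Tsr1, was read in some libraries only. It had 0, 1 and 0 reads in AAV-GFP mice, 0, 25 and 0 in the mice labelled obese, and 26, 23 and 0 in the mice labelled nonobese. Thus 3 of 6 AAV-Cre mice had between 23 and 26 reads, and the other 3 had 0. The exact permutation test gave a 2-sided p of 0.321.

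The mice labelled obese were then compared with AAV-GFP mice. None of the 31 snoRNAs passed an FDR of 0.1, where 0.555% of all entries did, and the lowest FDR of a member was 0.449 (Snora24, log2 FC 1.49 ± 0.66 SE, and 0.93 without AAV-GFP replicate 3). At an unadjusted p under 0.05, 1 member was found, against 9.88% of all entries, and the same 3 count tests called 0, with 0, 1 and 0 members at an unadjusted p under 0.05. Without labelled obese replicate 2, 1 snoRNA was called, Snord17, with a log2 FC of 0.91 and an FDR of 0.0492 in limma. The share of all entries called without that mouse is not given here, so the call says little about Snord17 in particular. The groups did not overlap for 4 of 31 members, where 14.5% of all entries did not. Snord8, Snora20 and Snora68 were higher in all 3 mice labelled obese, and Snora33 was lower.

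Snord8, within an intron of the chromatin remodeler gene Chd8, had a signal of 10.97, 11.1 and 3.11 in AAV-GFP mice, 24.5, 11.8 and 14.9 in the mice labelled obese, and 9.62, 6.29 and 16.6 in the mice labelled nonobese. Its log2 FC in the mice labelled obese was 1.04 ± 0.61 (SE; limma, FDR = 0.599), and without AAV-GFP replicate 3, the low control mouse, it was 0.52. Snora33 had 1, 4 and 8 reads in the mice labelled obese, close to the floor of 3 reads, with a log2 FC of -1.49 ± 0.90 (SE; limma, FDR = 0.615). For 3 mice against 3, the smallest 2-sided p of an exact permutation test is 0.1. Of the C/D class 11 of 17 members were above 0, with a median log2 FC of 0.33, and of the H/ACA class 6 of 14, with a median of -0.07, beside 47.0% and -0.04 for all entries. Without AAV-GFP replicate 3 these medians were 0.06 and -0.24, and without labelled obese replicate 1 the C/D median was 0.01.

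Markers of other cell types moved with the obese label. Those of leukocytes were also higher in every mouse labelled nonobese than in AAV-GFP mice. The summed signal of 5 markers of plasma cells and other leukocytes was 6.80 to 9.96 in AAV-GFP mice, 78.5 to 6055 in the mice labelled obese and 33.95 to 41.2 in the mice labelled nonobese, with 1 of the 5 at 0 in every AAV-GFP mouse. The sum of 5 microglial markers was 82.9 to 112.4, 105.1 to 487.1 and 86.4 to 94.3 in the same order, so that the mice labelled obese overlapped AAV-GFP mice. Sums of 5 astrocyte markers (637.4 to 739.3 in AAV-GFP mice, 831.8 to 1646 in the mice labelled obese and 574.7 to 788.0 in those labelled nonobese) and of 4 endothelial markers (59.3 to 91.3, 101.9 to 145.4 and 65.5 to 91.2) were higher in every mouse labelled obese than in all other mice. The sum of 5 oligodendrocyte markers was lower in every mouse labelled obese (830.9 to 1051) than in AAV-GFP mice (1144 to 1732) and in the mice labelled nonobese (1146 to 2510). Neuronal markers summed to 1487 to 2065 in the mice labelled obese and 2117 to 2198 in those labelled nonobese. The part of these cell types in the snoRNA values was not tested.

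In the mice labelled nonobese against AAV-GFP, again none of the 31 snoRNAs passed, where 0.0148% of all entries did, and none had an unadjusted p under 0.05 in limma, against 2.27% of all entries. edgeR's quasi-likelihood test, its likelihood ratio test and DESeq2 called 0 snoRNAs too, each with 1 at an unadjusted p under 0.05. The groups did not overlap for 1 of 31 members (Snora68), where 9.72% of all entries did not. Snord104, with a log2 FC of 1.03 ± 0.60 (SE; limma, FDR = 0.999), had the lowest p, and its log2 FC was 0.39 without AAV-GFP replicate 3 and 1.56 without AAV-GFP replicate 1. Of the C/D class 14 of 17 members were above 0, with a median of 0.40, and of the H/ACA class 10 of 14, with a median of 0.27, beside 48.1% and -0.02 for all entries. Without AAV-GFP replicate 3, 8 of 17 and 7 of 14 were above 0, with medians of -0.03 and -0.01, and without AAV-GFP replicate 1, 16 of 17 and 11 of 14 were, with medians of 0.65 and 0.48. The comparisons of both subsets share the same AAV-GFP mice.

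The AAV-Cre subsets were compared with each other. The log2 FCs of this comparison do not use the AAV-GFP values. Its standard errors, p values and FDRs do, since the filter and the estimate of the spread take in all 9 libraries. None of the 31 snoRNAs differed at an FDR under 0.1, where 0.948% of all entries did, the lowest FDR being 0.521 (Snora74a). None had an unadjusted p under 0.05 in limma, against 11.4% of all entries. No call was made in the other tests either, and 1 member had such a p in edgeR's quasi-likelihood test, in its likelihood ratio test and in DESeq2. The groups did not overlap for 4 members, where 13.3% of all entries did not: Snora7a, Snora34 and Snora35 were higher in the mice labelled nonobese, and Snora24 was lower. Of the C/D class 9 of 17 members were above 0 in the mice labelled nonobese, with a median log2 FC of 0.10, and of the H/ACA class 9 of 14, with a median of 0.26, beside 51.3% and 0.02 for all entries.

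Snora35 is a brain snoRNA within an intron of Htr2c, the gene of the serotonin receptor through which serotonin lowers food intake. Its signal was 13.2, 6.13 and 17.5 in AAV-GFP mice, 11.7, 9.30 and 11.6 in the mice labelled obese, and 12.6, 18.3 and 45.2 in the mice labelled nonobese. Labelled nonobese replicate 3 was far above all other mice. The log2 FC of nonobese against obese was 0.96 ± 0.56 (SE; limma, FDR = 0.523), and without that mouse it was 0.46. Snora7a signal was 33.1, 32.9 and 32.3 in the mice labelled obese and 39.5, 48.2 and 47.4 in the mice labelled nonobese, while the AAV-GFP mice, with 42.6, 36.6 and 20.2, spanned both. Snora74a signal was 78.8, 72.4 and 69.3 in AAV-GFP mice, 33.1, 59.0 and 72.0 in the mice labelled obese, and 84.7, 47.7 and 109.0 in the mice labelled nonobese, with a log2 FC between subsets of 0.54 ± 0.31 (SE). That value was 0.22 without labelled obese replicate 1, 0.28 without labelled nonobese replicate 3 and 0.87 without labelled nonobese replicate 2.

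Snora20, within an intron of the chaperonin gene Tcp1, and Snord13, an independently transcribed snoRNA that takes part in acetylation of the small ribosomal RNA, had the lowest p among the members below 0 between subsets. Snora20 signal was 3.49, 2.49 and 2.91 in AAV-GFP mice, 4.05, 5.90 and 8.13 in the mice labelled obese, and 1.05, 0.52 and 5.97 in the mice labelled nonobese. Snord13 signal was 10.5, 9.57 and 5.63 in AAV-GFP mice, 10.8, 8.62 and 14.6 in the mice labelled obese, and 5.77, 3.14 and 9.39 in the mice labelled nonobese. In both, 2 of 3 mice labelled nonobese lay below every mouse labelled obese, with log2 FCs of -1.29 ± 0.83 and -0.87 ± 0.64 (SE). Without labelled nonobese replicate 2 these were -0.85 and -0.53, and without labelled nonobese replicate 3 the value of Snora20 was -1.95.

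Host genes were then set beside the snoRNAs they hold. The host was analyzed for 23 of the 31 snoRNAs, in 22 distinct genes, and in 11 of these pairs it encodes a ribosomal protein. In 17 pairs the snoRNA lies outside all annotated exons of the host, and in 6 it overlaps an exon. Snord104, Snord13 and Snora43 have no annotated host on their strand, and the hosts of Snora74a, Snord89, Snora24 and Snord87 had no entry. Reads of a mature snoRNA and reads of the unspliced host that cover it cannot be told apart in gene values.

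The mean signal per 100 bases was higher for the snoRNA than for its host exons in 20 of 23 pairs. The median ratio was 2.68. Host length covers all annotated exons of the gene, which can exceed the length of its mRNA and so raise the ratio. Ratios near 1, such as 1.051 for Snora33, 1.065 for Snord82 and 1.075 for Snora62, could reverse with a shorter host length. Only snoRNAs with an entry are counted. The ratio was highest for Snora35 in Htr2c (51.6), followed by Snora23 in the importin gene Ipo7 (27.8), Snord17 in the sorting nexin gene Snx5 (23.7) and Snora16a in the noncoding host Snhg12 (20.2). It was lowest for Snord35a in Rpl13a (0.288), Snord16a in Rpl4 (0.325) and Snora20 in Tcp1 (0.792). The snoRNAs also varied more than their hosts, with a median CV over 9 libraries of 39.0% against 19.2%. Their CV was higher than that of the host in 22 of 23 pairs. Snora34 in Kansl2 was the exception, with 22.1% against 46.9%. The median over all entries tested was 38.6%, close to that of the snoRNAs. Most hosts had a higher mean signal than their snoRNA, and the pairs were not matched in level.

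**Figure D5:**
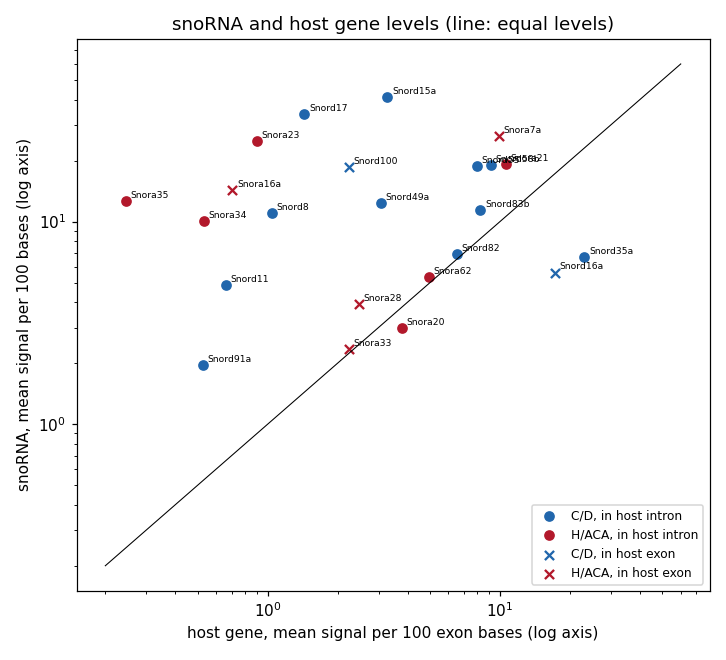
Mean signal per 100 bases over 9 libraries of each snoRNA against that of the exons of its host gene, both on log axes, with the line of equal levels; colors are the class, and crosses mark snoRNAs that overlap an exon of the host. Of 23 pairs 20 lie above the line, with Snora35 farthest from it (ratio 51.6) and Snord35a farthest below (ratio 0.288). Host length covers all annotated exons, which can exceed the mRNA, so pairs close to the line could fall on either side.

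The changes of snoRNAs were set beside those of their hosts. For all AAV-Cre against AAV-GFP, the log2 FCs of 23 snoRNAs and their hosts had the same sign in 15 pairs, with Pearson's r of -0.48 and Spearman's rho of -0.13 across pairs, given as a description since the genes share libraries. Between the subsets r was 0.43 (rho 0.38) with the same sign in 14 pairs. None of these hosts passed an FDR of 0.1 in any of the 4 comparisons. Snx5, the host of Snord17, had a log2 FC of 0.53 ± 0.25 (SE) beside 0.46 ± 0.26 for Snord17. For Ncl and Snord82 the values were 0.28 ± 0.13 and -0.56 ± 0.69, and for Rps12 and Snord100 they were 0.87 ± 0.33 and 0.26 ± 0.46.

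The proteins that bind and build these particles were examined from fixed lists. Of the C/D core proteins Fbl (fibrillarin, the methylase), Nop56, Nop58 and Snu13, 0 of 4 passed an FDR of 0.1 in any comparison, with a median log2 FC of -0.06 in all AAV-Cre mice. Of the H/ACA core proteins Dkc1 (dyskerin, the pseudouridine synthase), Nop10, Nhp2 and Gar1, 0 of 4 passed, with a median of -0.20. Dkc1 signal was 28.2, 19.9 and 25.0 in AAV-GFP mice, 19.8, 28.4 and 27.4 in the mice labelled obese, and 29.6, 43.2 and 39.0 in the mice labelled nonobese. Of 14 assembly factors 0 passed in any comparison, and the median in all AAV-Cre mice was 0.01. Ruvbl2, an ATPase of the assembly complex, had the lowest p of this list, with a log2 FC of -1.16 ± 0.50 (SE; limma, FDR = 0.999). Its signal was 20.7, 17.8 and 32.2 in AAV-GFP mice, 15.3, 5.90 and 17.4 in the mice labelled obese, and 6.83, 4.71 and 15.2 in the mice labelled nonobese. Every AAV-Cre mouse was below every AAV-GFP mouse, though narrowly (17.4 against 17.8). The groups did not overlap in 2.01% of all entries. Ruvbl2 was picked from its list by these same values, which allow no conclusion.

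Of 27 listed noncoding and other snoRNA host genes 16 had an entry, and Rian was called. Rian is an imprinted, maternally expressed long RNA of brain that hosts a C/D snoRNA cluster of its own, none of whose copies is a member here. Its signal was 575.9, 586.7 and 661.1 in AAV-GFP mice, 328.3, 459.1 and 369.6 in the mice labelled obese, and 618.6, 579.6 and 549.1 in the mice labelled nonobese. Every mouse labelled obese was below all others. Rian was lower in the mice labelled obese than in AAV-GFP mice (log2 FC -0.67 ± 0.15 SE; limma, FDR = 0.0559) and higher in the mice labelled nonobese than in those labelled obese (0.61 ± 0.15 SE, FDR = 0.0721), and in all AAV-Cre mice against AAV-GFP it did not pass (-0.36, FDR = 0.999). When 1 of the 6 mice compared was left out, the first of these calls was lost unless that mouse was labelled obese replicate 2 (FDR 0.184 to 0.348 for the others), and so was the second (0.142 to 0.329), while the log2 FCs stayed between -0.80 and -0.56 and between 0.50 and 0.74. Snhg11, a neuronal host transcript, was not called, with a log2 FC of -0.43 ± 0.14 (SE; limma, FDR = 0.999) in all AAV-Cre mice.

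Among 41 other small RNAs, which comprise small Cajal body RNAs, small nuclear RNAs and further short noncoding RNAs, Vaultrc5 was called. Vaultrc5 is a vault RNA, a short RNA of the cytoplasmic vault particle. Its signal was 20.7, 23.0 and 17.5 in AAV-GFP mice, 116.8, 45.4 and 65.0 in the mice labelled obese, and 24.3, 13.4 and 41.2 in the mice labelled nonobese. Every mouse labelled obese was above all others, with a log2 FC of 1.74 ± 0.41 against AAV-GFP (SE; limma, FDR = 0.0563). When 1 of these 6 mice was left out, the call was lost unless that mouse was labelled obese replicate 2 (FDR 0.151 to 0.402 for the others), while the log2 FC stayed between 1.38 and 2.05. Across the 41 entries the median log2 FC was -0.36 in the mice labelled obese and 0.02 in the mice labelled nonobese. Astrocyte, endothelial and oligodendrocyte markers moved with the obese label as given above, and microglial markers did so with overlap. Leukocyte markers were higher in both AAV-Cre subsets than in AAV-GFP mice, and highest in the mice labelled obese. Summed neuronal markers were lower in every mouse labelled obese than in those labelled nonobese, and overlapped AAV-GFP mice. The part of these cell types in the values of Rian and Vaultrc5 was not tested.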

How the data were processed

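RNA was amplified with the SMARTer Stranded pico kit. Per the labels, the submitters' processing notes name CASAVA 1.7, TopHat2 2.0.11, HTSeq, edgeR, limma and GRCm38. Whether strand was used in counting is not given in the sources used here. The deposited unit is signal, for which the authors scaled the reads of each entry by TMM-adjusted depth. Each value was a whole multiple of 1 read (100% within 0.02), so reads were recovered. Symbols and positions came from GENCODE M21, in which 13446 of 13586 Ensembl identifiers had a symbol. 1 further C/D entry and the host of 1 snoRNA are not reported here. For each comparison, limma 3.58.1 in R 4.3.3 was fitted to log2 of the signal plus 1, with a mean-variance trend, over 13506 entries that reached a signal of 1 in 3 libraries or more. P values were adjusted over all of them by the Benjamini-Hochberg method, and FDR under 0.1 was a call. The design had assumed CPM, and its test was kept. The 6 AAV-Cre mice formed 1 group in the comparison of all AAV-Cre mice, and the other comparisons shared a fit of 3 groups. Exact permutation tests of means served for single values. As alternatives, the pseudocount (0.1, 5), the filter (none, 5), the samples fitted, centring, the trend, a replicate block and the tool (edgeR 4.0.16, DESeq2 1.42.0) were changed, and each mouse was left out. Scripts were tested on simulated data with a spread set in advance. There limma called 44.0% of entries changed 4-fold in all AAV-Cre against AAV-GFP, and 10.6% of its calls were false. Named members were the 8 highest of each class, the 3 of lowest p in each direction of each comparison, those without overlap between AAV-Cre and AAV-GFP mice, and those of highest and lowest CV, and other names beside counts were chosen after their values were seen. Members and lists were chosen with earlier results of these data known.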

Additional observations from a re-analysis of the deposited data

Results flagged for a closer look

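The 31 snoRNAs and the summed signal of each class were examined over the 6 AAV-Cre mice for a library that stands apart, by its gap to the next value as a share of the whole range (Dixon's test for 6 samples). Of 33 values 5 stood apart, each at the high end. The rate of 1 in 20, or 1.65, holds for normally distributed values of 1 group. Here signal was not put on a log scale and both AAV-Cre subsets were pooled, so the count cannot be set against chance. Labelled nonobese replicate 3 was the high library for Snora35 (signal 45.2, gap 0.749 of the range), for Snord49a (15.4, gap 0.656) and for the summed H/ACA signal (416.3, gap 0.780). Labelled obese replicate 1 was the high library for Snord100 (25.0, gap 0.728) and for Snord58b (27.2, gap 0.685). The values of members are from the same libraries and are not independent.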

How the results depend on the processing

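The count of snoRNAs called was 0 under every alternative in all 4 comparisons, except for labelled obese against AAV-GFP, where leaving out 1 mouse at a time gave 0 to 1 and the single call, Snord17, came without labelled obese replicate 2. The share of all entries called without that mouse is not given. The median log2 FC of C/D snoRNAs in the mice labelled nonobese ran from -0.031 (without AAV-GFP replicate 3) to 0.65 when 1 mouse at a time was left out, and from 0.26 to 0.43 under the other alternatives. Of 517 alternatives of 30 log2 FCs of named genes, 491 kept direction and side of the threshold. The log2 FC of Snora33 in the mice labelled nonobese ran from -0.89 to 0.018 when 1 mouse at a time was left out, the latter without labelled nonobese replicate 2. That of Snord91a in the same comparison ran from 0.67 to 5.55 under alternatives other than leaving out a mouse, since its AAV-GFP mice are at or under 3 reads. Under 11 alternatives other than leaving out a mouse, the FDR of Rian ran from 0.0029 to 0.490 in the mice labelled obese (call lost under 2) and from 0.00741 to 0.423 between the subsets (lost under 5), and that of Vaultrc5 from 0.00383 to 0.410 (lost under 2). Correlations of deviations were weak between same-numbered mice (-0.02 to 0.09) and between differently numbered ones (-0.088 to 0.040), with the highest between same-numbered mice. The paper calls the AAV-GFP controls region-matched without saying which mice were matched, and the main fits were unpaired. With the replicate block 0 snoRNAs were called, the lowest FDR being 0.396 in the mice labelled obese. The causes of these shifts were not tested.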
